A study of Mus musculus with 16 samples.

Results

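Esrp1, Esrp2, Grhl2, Ovol2, Zeb1, Zeb2, Snai1, Snai2, Twist1 and Vim are 10 genes that set or mark whether a cell is epithelial or mesenchymal, and they were followed here in the embryonic mouse kidney. They were chosen by name from knowledge of the pathway, through every probe set (a group of short probes for 1 transcript on the array) that the platform annotation assigns to 1 of these symbols alone. All 10 were found, among 18193 genes with a probe set, and together they have 24 probe sets. Each gene is described by its brightest probe set over the arrays, and the other 14 probe sets are given as checks.

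The samples are 16 arrays of mouse kidney rudiments at E11.5, holding either the ureteric bud (UB), the epithelium that gives rise to collecting ducts, or the metanephric mesenchyme (MM) around it, from which nephrons and stroma form. There were 4 wild-type UB arrays, each from 3 to 9 pooled buds. There were 5 arrays of MM from embryos null for both HoxA11 and D11, lifted by laser capture from 7 µm sections of urogenital ridges, and 4 arrays of wild-type MM captured from 7 µm sections of kidney rudiments, each pooling 3 to 4 mesenchymes. The last 3 arrays held wild-type MM from single mesenchymes, parted from the bud by hand, as the UB was, after collagenase B at 0.5 mg/ml and 37 °C. UB and hand-dissected MM therefore share their method and differ in pooling. The null and wild-type captures differ in the piece sectioned and in the stated pooling as well as in genotype, and these cannot be told apart. Strain, litter and batch were not stated in the labels. The values are MAS5 signals on a linear scale, with array medians of 112.7 to 209.2, and a signal below its array's median is called dim here.

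Epithelial cells hold to their neighbours through E-cadherin junctions, and mesenchymal cells do not. Esrp1 and Esrp2 are RNA-binding proteins that set the epithelial splice forms of transcripts such as Fgfr2 and Cd44. Grhl2 and Ovol2 are transcription factors that keep epithelial genes on and repress Zeb1. Zeb1, Zeb2, Snai1 and Snai2 are zinc finger repressors that bind E-boxes in epithelial genes such as Cdh1, Twist1 is a bHLH factor that acts with them, and Vim encodes vimentin, the intermediate filament of mesenchymal cells. The bud is an epithelium from the start, while the MM turns epithelial later, as nephrons form.

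RefSeq promoter windows (GRCm38.p6) run here from 250 bases before to 50 after a start site. Those of 5 of the 10 genes are reported, Ovol2, Zeb2, Snai1, Twist1 and Vim. The following 4 are shown because they stand for both sides of the set: Ovol2 and its mesenchymal counterparts Snai1, Twist1 and Vim. Capitals mark CACCTG or CAGGTG, the same E-box read on either strand. The Ovol2 window is chr2:144331313-144331612 (minus strand), that of Snai1 is chr2:167537945-167538244 (plus strand), that of Twist1 is chr12:33957421-33957720 (plus strand) and that of Vim is chr2:13574061-13574360 (plus strand).
Ovol2: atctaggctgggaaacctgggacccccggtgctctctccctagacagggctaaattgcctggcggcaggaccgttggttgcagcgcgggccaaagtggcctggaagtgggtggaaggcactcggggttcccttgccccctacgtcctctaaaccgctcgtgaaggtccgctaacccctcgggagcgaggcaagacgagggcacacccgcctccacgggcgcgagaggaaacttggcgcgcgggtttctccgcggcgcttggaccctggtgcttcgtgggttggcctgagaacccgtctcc
Snai1: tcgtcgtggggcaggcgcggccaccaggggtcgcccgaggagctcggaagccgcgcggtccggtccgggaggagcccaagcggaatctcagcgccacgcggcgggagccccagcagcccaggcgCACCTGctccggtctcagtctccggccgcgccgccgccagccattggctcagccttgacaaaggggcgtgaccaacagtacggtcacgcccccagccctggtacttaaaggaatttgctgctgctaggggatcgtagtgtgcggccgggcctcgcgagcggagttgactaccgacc
Twist1: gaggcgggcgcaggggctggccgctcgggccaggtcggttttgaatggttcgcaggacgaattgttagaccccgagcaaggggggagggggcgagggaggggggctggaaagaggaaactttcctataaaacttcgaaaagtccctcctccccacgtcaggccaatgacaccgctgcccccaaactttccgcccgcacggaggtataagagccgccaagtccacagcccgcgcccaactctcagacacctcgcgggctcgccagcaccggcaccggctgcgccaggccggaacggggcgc
Vim: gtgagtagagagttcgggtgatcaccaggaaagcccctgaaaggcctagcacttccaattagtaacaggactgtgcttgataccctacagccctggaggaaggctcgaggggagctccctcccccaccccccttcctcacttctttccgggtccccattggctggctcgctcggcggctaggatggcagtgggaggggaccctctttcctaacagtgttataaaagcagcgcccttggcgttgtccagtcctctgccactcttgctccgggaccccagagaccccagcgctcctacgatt

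Of the 8 windows of these 5 genes, the 4 of Zeb2 included, 1 held the E-box, that of Snai1, 126 bases before the start site. Any Zeb1 window was set aside after the search and is not reported here, so the counts do not cover Zeb1. Of all 32851 promoter windows of this length, 20.2% held it. The looser form CANNTG, which includes it, was in 72.3% of all windows and, among the 8, again only in that of Snai1. The shorter Grhl site AACCGG or CCGGTT was in 6.83% of all windows and the full AACCGGTT in 0.146%, and neither was in any of the 8. These are matches of letters in a short window.

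In UB against hand-dissected MM, 8 of the 10 genes were called, each in the direction of its side. Esrp1, Grhl2 and Ovol2 rose in UB, and Zeb1, Zeb2, Snai2, Twist1 and Vim fell. Esrp2 did not pass the test by its brightest probe set, and Snai1 was dim. Differences were tested with limma on log2(signal + 36.3), where 36.3 is the 25th percentile of all values. An adjusted p below 0.05 over all probe sets kept by a filter on dim signals counts as a call. Of the 9 genes tested, 3 were called higher and 5 lower. Over all 12435 genes tested, 13.9% were called higher and 14.6% lower. The filter kept Esrp1, Esrp2 and Ovol2 through UB alone and Zeb2 through MM alone, so these 4 were tested only because they were bright there.

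Esrp1 had signals of 29077, 26971, 23307 and 22221 in the 4 UB arrays, against 32.0, 7.30 and 36.2 in hand-dissected MM. All MM arrays were dim and far below every UB array (log2 difference 8.72 ± 0.24 SE, limma adjusted p = 2.28e-09). Esrp1 has 1 probe set, so no other checks this value.

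Grhl2 had signals of 6054, 7579.6, 6158 and 5009 in UB and of 185, 169 and 143 in hand-dissected MM. All MM arrays lay above their medians and far below every UB array (log2 difference 4.94 ± 0.22 SE, limma adjusted p = 3.52e-08). Its probe set 1431878_at was also called higher in UB (2.61 ± 0.37 SE, limma adjusted p = 0.000319). Probe set 1431877_a_at went the other way without being called (-0.43 ± 0.23 SE, limma adjusted p = 0.201), with signals of 249.6, 233, 216 and 299 in UB, against 326, 358 and 354 in MM. The last probe set of Grhl2 was dim in all UB and hand-dissected MM arrays.

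Ovol2 had signals of 1644, 1780.3, 2265 and 2290.0 in UB, against 73.1, 89.3 and 102 in hand-dissected MM. All MM arrays were dim (log2 difference 4.02 ± 0.23 SE, limma adjusted p = 1.83e-07). Ovol2 has no other probe set.

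The probe sets of Esrp2 differed. The brightest over 16 arrays, 1419977_s_at, read 150.2, 373, 442 and 297 in UB, against 94.9, 187 and 123 in hand-dissected MM, with 1 UB array inside the MM range (log2 difference 0.99 ± 0.35 SE, limma adjusted p = 0.0603). It passed in 6 of 19 alternative analyses. The other, 1433683_at, read 1359, 2208, 2065 and 1969 in UB and 108, 33.9 and 99.6 in MM. By that probe set Esrp2 was higher in UB (4.10 ± 0.30 SE, limma adjusted p = 1.34e-06).

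**Figure D1:**
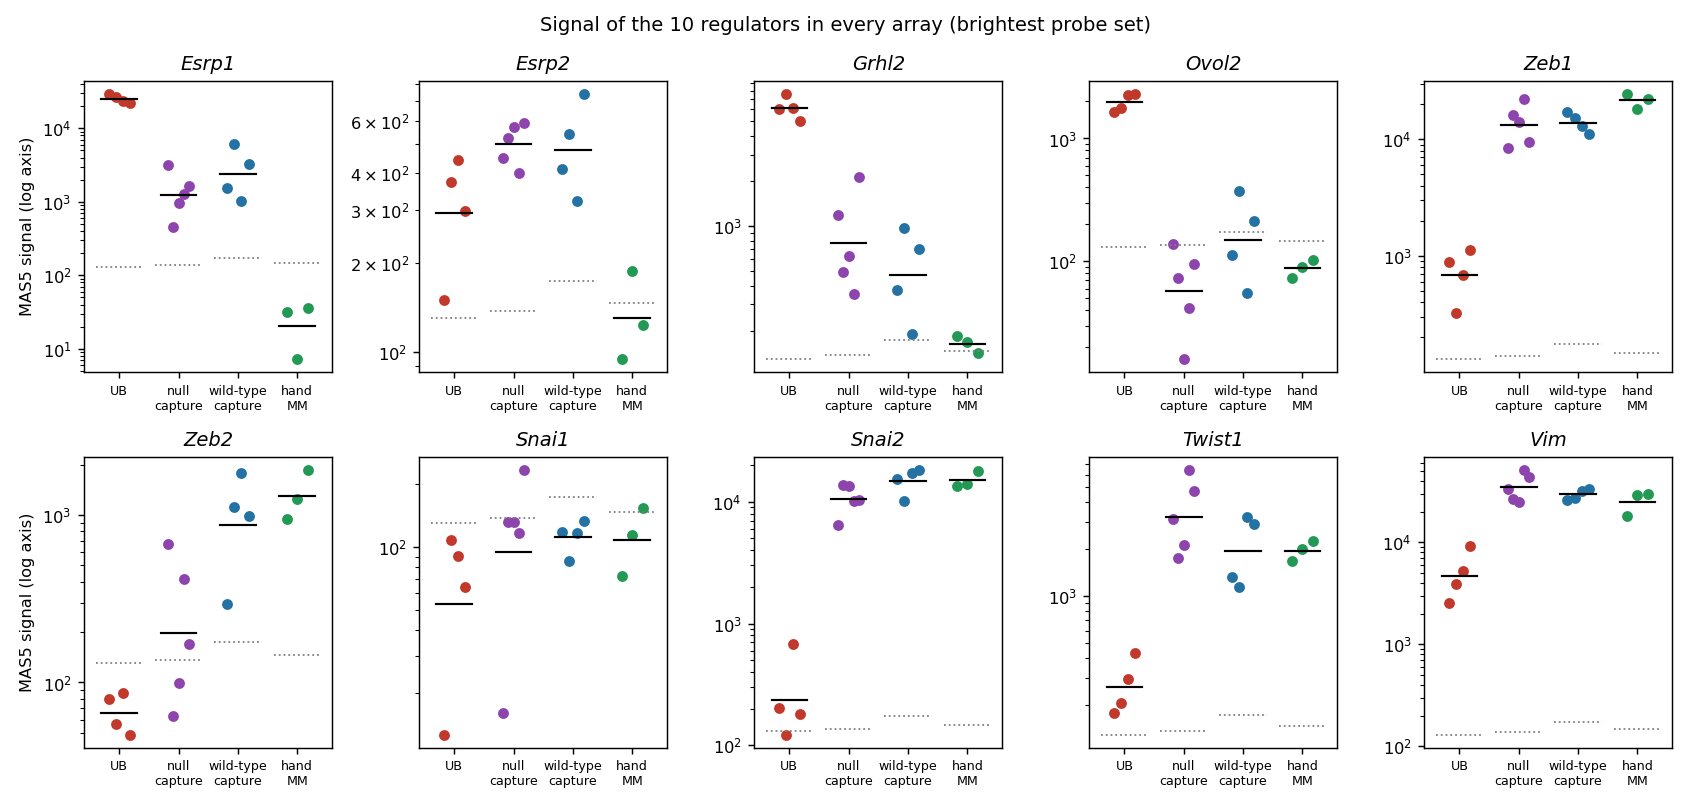
Each panel plots the MAS5 signal (log axis, range set per panel) of 1 gene through its brightest probe set, 1 point per array. Solid lines are geometric means of a group and dotted lines the mean of its array medians; Esrp1, Grhl2 and Ovol2 are highest in the 4 UB arrays and Zeb1, Snai2, Twist1 and Vim lowest there, as is Zeb2 but for null replicate 2 (62.8).

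Zeb1 had signals of 891, 321, 688 and 1124 in UB, against 24351, 18344 and 22382 in hand-dissected MM. It lay above the median in every array of both, yet every MM array was far above every UB array (log2 difference -4.89 ± 0.35 SE, limma adjusted p = 1.12e-06). Its probe set 1443005_at was also called lower (-2.49 ± 0.23 SE, limma adjusted p = 8.56e-06), and the other 2 were dim in both groups.

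Zeb2, the close relative of Zeb1, had signals of 80.1, 56.4, 86.0 and 48.9 in UB and of 952, 1253 and 1856 in hand-dissected MM. It was dim in every UB array and in no MM array (log2 difference -3.70 ± 0.28 SE, limma adjusted p = 2.02e-06). Probe set 1434298_at was also called lower (-3.15 ± 0.36 SE, limma adjusted p = 5.26e-05), and the other 3 were too dim to be tested.

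Snai2, also known as Slug, had signals of 202, 123, 684 and 182 in UB, against 13623, 14061 and 17756 in hand-dissected MM. UB replicate 3 stood above the other UB arrays and still far below all MM arrays (log2 difference -5.76 ± 0.42 SE, limma adjusted p = 1.50e-06). This was the widest gap among the mesenchymal genes of the set. The second probe set, 1418673_at, read 66.6 to 80.5 in UB and 818 to 1714 in MM (-3.55 ± 0.28 SE, limma adjusted p = 2.41e-06).

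Snai1, the other Snail factor, was dim in most arrays. It read 12.7, 108, 90.8 and 64.6 in UB, against 72.6, 114 and 153 in hand-dissected MM. The ranges overlapped, and with 1 of 7 arrays above its median the gene was not tested. Its single probe set thus gives no more than a low signal in both tissues.

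Twist1 had signals of 178, 207, 296 and 431 in UB and of 1669, 2003 and 2245 in hand-dissected MM (log2 difference -2.73 ± 0.29 SE, limma adjusted p = 2.66e-05). Vim had signals of 2563, 3932, 5204 and 9132 in UB, against 18204, 29421 and 29600.5 in hand-dissected MM (-2.42 ± 0.36 SE, limma adjusted p = 0.000377). Vim remained a bright signal in the bud. Relative to the mean of hand-dissected MM, the mean UB signal was 1.97% for Snai2, 3.49% for Zeb1, 5.01% for Zeb2, 14.1% for Twist1 and 20.2% for Vim. The other 2 Vim probe sets were called lower by similar amounts (-2.34 ± 0.37 and -2.50 ± 0.33 SE). In bulk samples such as these, fewer cells of a type and less RNA per cell cannot be told apart.

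Markers of mesenchyme and of other cells moved with these genes. The summed signal of 6 renal stroma markers was 768.8 to 1427.0 in UB, against 48921 to 61895 in hand-dissected MM. That of 8 endothelial markers was 1400.5 to 2959 in UB and 8003.5 to 12135 in MM, and that of 6 macrophage markers was 299.8 to 531.5 and 3572 to 10458. Within UB, 3 to 4 of the 6 stroma markers, 4 to 6 of the 8 endothelial and 1 of the 6 macrophage markers lay above the array median. Erythroid markers went the same way, with 5 of 6 called lower and sums of 8795 to 38728 in UB, against 64029 to 72899 in MM. The part of these cells in the UB values of Zeb1, Zeb2, Snai2, Twist1 and Vim was not tested. For Gapdh, the 3' over the 5' control signal, which rises as RNA degrades, was 6.53 to 12.2 in UB, 18.4 to 26.3 in the null captures, 14.3 to 22.9 in the wild-type captures and 22.1 to 69.3 in hand-dissected MM. For Actb it was 10.9 to 16.3, 17.5 to 27.6, 14.8 to 20.9 and 11.1 to 17.9 in the same groups. The part of RNA quality in the results was not tested either.

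**Figure D2:**
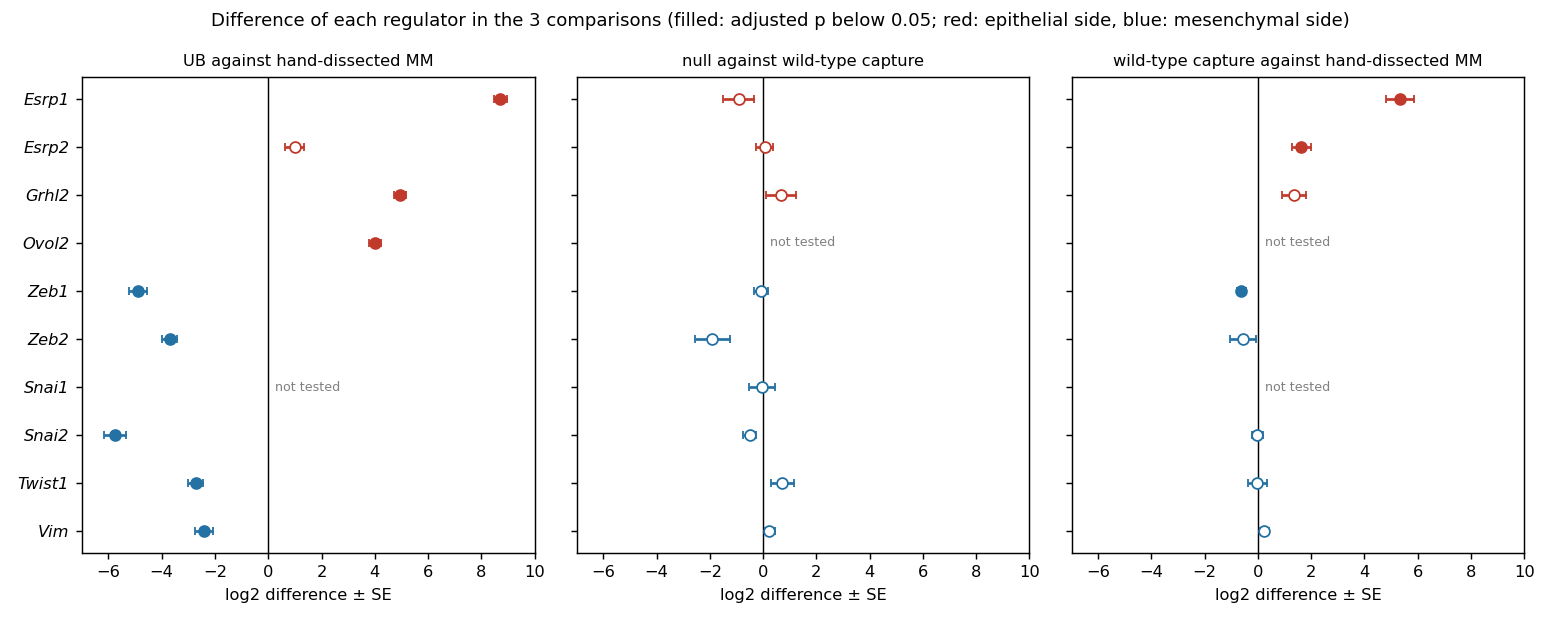
Points are the log2 difference of each gene in the 3 comparisons, with limma's SE as bars, filled where the adjusted p is below 0.05. In UB against hand-dissected MM the called epithelial genes (red) lie above 0 and all 5 tested mesenchymal genes (blue) below it, and in null against wild-type capture no point is filled.

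Genes that act with or below the set were counted in the same comparison. Of 27 tested epithelial junction and polarity genes, 26 rose in UB and 0 fell, with a median log2 difference of 4.69 where that of all genes was 0.01. Cdh1, the E-cadherin gene repressed by Zeb and Snail factors, stood at 8619 ± 2998 (SD, n = 4) in UB and 28.6 ± 24.4 (SD, n = 3) in hand-dissected MM (7.07 ± 0.32 SE). The tight junction claudins Cldn3 and Cldn7 rose by 8.24 ± 0.26 and 7.82 ± 0.23 SE. Cdh1, Cldn3 and Cldn7 were dim in every hand-dissected MM array, so the filter kept them through UB alone. The same held for Cldn4, Ocln, Tjp3, Marveld3, Rab25, Pkp3, St14, Prss8 and Krt19. The count and median of this list thus rest in part on genes tested only because they were bright in UB. Patj, a polarity scaffold, was the tested gene not called (0.46 ± 0.29 SE, limma adjusted p = 0.288), though 1 of its other 2 tested probe sets was called higher.

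Of 9 other epithelial transcription factors tested, 7 rose and 1 fell. Tfap2a, an AP-2 factor, rose by 5.42 ± 0.21 SE, Elf5, an ETS factor, by 4.02 ± 0.32 SE and Tfap2c by 4.01 ± 0.37 SE. Elf5 and Tfap2c were dim in every hand-dissected MM array, so the filter kept both through UB alone. Klf4 fell, at 2813 ± 837 in UB and 7138 ± 3334 in hand-dissected MM (-1.28 ± 0.31 SE, limma adjusted p = 0.00995), and its other tested probe set was not called. Of the relatives of Grhl2 and Ovol2, Ovol1 rose (1.22 ± 0.27 SE), Grhl1 was not called (-0.29 ± 0.33 SE) and Grhl3 was too dim to test.

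Of 18 other mesenchymal transcription factors 17 were tested, and 13 fell in UB and 2 rose, with a median log2 difference of -2.36. The forkhead factors Foxc2 (-7.09 ± 0.59 SE), Foxd1 (-6.60 ± 0.32 SE) and Foxc1 (-5.86 ± 0.37 SE) fell most. Twist2, the relative of Twist1, also fell (-3.65 ± 0.42 SE). Those that rose were Snai3, a further Snail factor, with a mean signal of 261.8 ± 80.8 in UB (SD, n = 4), against 87.0 ± 60.4 in hand-dissected MM (SD, n = 3; 1.36 ± 0.39 SE), and Tcf3, an E protein that pairs with Twist factors (0.91 ± 0.28 SE). In 18 alternative analyses Snai3 was called in 12 and Tcf3 in 11. Of 22 tested matrix, adhesion and cytoskeleton genes of mesenchyme, 17 fell and 0 rose, with a median of -2.62. They included the growth factor receptor Pdgfra (-5.79 ± 0.45 SE), the mesenchymal cadherins Cdh11 (-5.67 ± 0.23 SE) and Cdh2 (-4.08 ± 0.26 SE), and the collagen Col1a1 (-5.55 ± 0.23 SE).

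Of 13 splicing factors that act with or against Esrp proteins, 2 rose and 0 fell, a share close to the 13.9% of all genes that rose. These were Rbm47, at 258.6 ± 54.4 (SD, n = 4) in UB, against 58.2 ± 36.5 (SD, n = 3) in hand-dissected MM (1.70 ± 0.33 SE), and Mbnl2 (0.64 ± 0.19 SE), whose other 3 tested probe sets were not called. Rbm47 was dim in every hand-dissected MM array and was kept by the filter through UB alone. Of 8 transcripts whose splicing Esrp proteins set, the total level of 2 rose, Magi1 (1.93 ± 0.31 SE) and Scrib (1.19 ± 0.25 SE), and that of the adhesion receptor Cd44 fell (-2.62 ± 0.35 SE). Fgfr2 was at 17541 ± 5499 in UB and 14473 ± 2137 in MM, which was not called (0.23 ± 0.24 SE, limma adjusted p = 0.522), while its other tested probe set was called higher. These probe sets read total transcript, and splice forms were not measured.

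Of 11 tested genes of TGF-beta signalling, an inducer of Zeb and Snail factors, 0 rose and 3 fell. The ligands Tgfb2 (-3.39 ± 0.39 SE) and Tgfb3 (-3.01 ± 0.25 SE) and the signal carrier Smad2 (-0.69 ± 0.21 SE) were those, the last called in 10 of 18 alternatives. Tgfb2 was dim in every UB array, so the filter kept it through MM alone. Of 11 corepressors that Zeb and Snail factors recruit, 0 were called in either direction with limma, and 3 had an unadjusted p below 0.05, where 41.2% of all genes had one. Of these Ctbp2, which binds Zeb proteins, had the lowest p (0.74 ± 0.25 SE, limma adjusted p = 0.0533), and its other tested probe set was called higher.

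In null against wild-type capture, none of the 9 tested genes was called with limma. Over all 12161 genes 1.74% were called in either direction, 0.748% higher and 0.995% lower. Of the targeted genes, Hoxa11 read 91.8 to 196.6 in the null captures, against 525.5 to 839.6 in the wild-type captures (log2 difference -2.24 ± 0.34 SE, limma adjusted p = 0.0114). Hoxd11 read 192.0 to 482.2 in the null and 317.8 to 586.8 in the wild type and was not called (-0.35 ± 0.36 SE, limma adjusted p = 0.635). Whether either probe set lies in a deleted part was not checked. Ovol2 was too dim to be tested. The filter kept Zeb2 through the wild-type captures alone and Snai1 through the null captures alone. Unadjusted p values were below 0.05 for 1 of the 9, Zeb2 (0.0131), where 19.1% of all genes had one. Of all probe sets 411 were called, and leaving out 1 array gave 60 (without wild-type replicate 3) to 1809 (without null replicate 1). The median difference over all genes was -0.10, so the captures were not centred on 0.

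Zeb2 had signals of 670.0, 62.8, 99.4, 416 and 169 in the null captures, against 294, 1109, 1786 and 990.3 in the wild-type captures. Null replicates 1 and 4 lay above the lowest wild-type capture, and the other 3 below all 4 (log2 difference -1.90 ± 0.65 SE, limma adjusted p = 0.150). Without null replicate 1, whose correlation with its own group was the lowest of the 16 arrays (a median of 0.896), the difference was -2.29 and was called (limma adjusted p = 0.0436). Its tested probe sets 1458941_at (-1.10 ± 0.50 SE) and 1422748_at (-0.72 ± 0.53 SE) were lower too, without a call (limma adjusted p = 0.264 and 0.499).

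Macrophages also express Zeb2, and of 5 tested macrophage markers 1 was called lower and 4 had an unadjusted p below 0.05. The summed signal of all 6 was 12238, 1078, 6151, 4075 and 1670.4 in null captures 1 to 5, against 15542, 19365, 15931 and 9263 in wild-type captures 1 to 4. Of these markers 2 to 4 lay above the array median in the null and 4 to 5 in the wild-type captures. Tyrobp, a macrophage adaptor, was called lower (-2.29 ± 0.50 SE, limma adjusted p = 0.0470), a call that held in 6 of 21 alternatives and was lost without any 1 array other than null replicate 1. Cx3cr1, a macrophage chemokine receptor, was not called (-0.52 ± 0.57 SE, limma adjusted p = 0.667), and Aif1 was not tested. The hand-dissected arrays, with Zeb2 at 952 to 1856, had lower macrophage sums of 3572, 6872 and 10458, of which only the last lay above a wild-type capture. Endothelial markers summed to 3764 to 8815 in the null, against 4249 to 19896 in the wild type, with 4 to 8 and 6 to 8 of the 8 above the median. The part of either in the Zeb2 values was not tested.

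**Figure D3:**
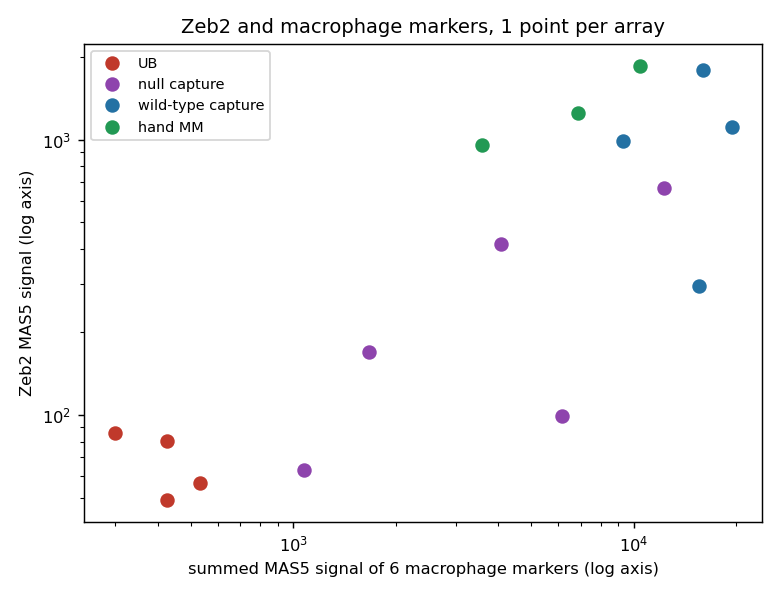
Zeb2 signal is plotted against the summed signal of 6 macrophage markers, both on log axes, with 1 point per array. The 4 UB arrays have the lowest macrophage sums, 4 of the 5 null captures lie below every wild-type capture on that axis, and null replicate 2 has a Zeb2 signal (62.8) within the UB range.

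Snai2 had signals of 6454, 13655, 13446, 10227 and 10378 in the null captures, against 15289, 10155, 17096 and 18280.1 in the wild-type captures. The lowest wild-type array lay inside the null range (log2 difference -0.50 ± 0.24 SE, limma adjusted p = 0.296). By probe set 1418673_at the groups did not overlap, at 456, 553, 535, 393 and 462 in the null and 955, 949, 1195 and 1462 in the wild type. That difference missed the threshold by little (-1.18 ± 0.27 SE, limma adjusted p = 0.0517), in a comparison in which 6.14% of all probe sets were lower in the null with groups that did not overlap. It was called in 5 of 21 alternative analyses chosen for this probe set after its values were seen (limma adjusted p = 0.0114 to 0.194).

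The remaining mesenchymal genes showed no call. Zeb1 read 8354, 16067, 14084, 22235 and 9476 in the null captures, against 17052, 15145, 12986 and 11164 in the wild-type captures, whose range lay inside that of the null (log2 difference -0.08 ± 0.27 SE). Twist1 read 3116, 1759, 2115, 6422 and 4680.4 in the null and 1325, 1140.2, 3188 and 2889 in the wild type (0.73 ± 0.43 SE, limma adjusted p = 0.391). Vim read 24983 to 51253 in the null and 25879 to 33589 in the wild type (0.23 ± 0.21 SE). Both were highest in null replicates 4 and 5. Of 6 neural crest and neuron markers the summed signal was 2581.8 to 27482 in the null, highest in replicate 4 and lowest in replicate 5. In the wild type it was 2138.1 to 4790.6. Of the 4 markers tested, Ina was called higher in the null (log2 difference 3.515), a call that held in 14 of 21 alternatives. That call was lost without null replicate 2 or 3 or any wild-type capture. The part of these cells was not tested. Snai1 read 16.1 to 234 in the null and 85.7 to 133 in the wild type, dim in all 4 wild-type arrays and in 1 of the null (-0.05 ± 0.48 SE).

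Among the epithelial genes, Esrp1 had signals of 3179, 449, 966, 1292 and 1634 in the null captures, against 1530.2, 6182, 1042 and 3291 in the wild-type captures. It was above the median in all 9 captures, and the groups overlapped (log2 difference -0.92 ± 0.58 SE, limma adjusted p = 0.424). Grhl2 had signals of 1182, 494, 632, 350.1 and 2130.4 in the null and of 375, 977, 192 and 699.9 in the wild type (0.67 ± 0.57 SE, limma adjusted p = 0.565). Ovol2 read 139.7, 73.2, 16.1, 41.7 and 94.5 in the null captures, all dim, against 112, 375, 55.0 and 212 in the wild-type captures, of which 2 were above the median.

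Esrp2 by its brightest probe set read 401 to 590.5 in the null and 321 to 737 in the wild-type captures (log2 difference 0.06 ± 0.32 SE). By probe set 1433683_at, the one that parted UB from MM, it read 1779.7, 65.3, 118, 437 and 1217 in the null and 99.6, 219, 94.3 and 44.3 in the wild type. Null replicates 1, 4 and 5 stood above all wild-type captures, at 93.7%, 23.0% and 64.0% of the mean UB signal, and replicates 2 and 3 did not. The difference was not called (1.68 ± 0.81 SE, limma adjusted p = 0.295), and 0 of 17 alternatives called it (adjusted p = 0.131 to 0.525).

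The wider lists held few calls in this comparison. None of 25 tested epithelial junction and polarity genes, 17 mesenchymal transcription factors, 6 epithelial transcription factors, 13 splicing factors, 8 Esrp-spliced transcripts or 11 TGF-beta genes was called with limma, and 3, 5, 2, 2, 2 and 1 of them had an unadjusted p below 0.05. Their median log2 differences were 0.03, -0.41, -0.50, -0.17, -0.13 and 0.01 in that order. Of 21 mesenchymal matrix and adhesion genes the neural cell adhesion gene Ncam1 rose, at 39887 ± 8321 (SD, n = 5) in the null and 22081 ± 3385 (SD, n = 4) in the wild type (0.84 ± 0.17 SE, limma adjusted p = 0.0399). Its other 3 tested probe sets were not called, and leaving out null replicate 2 or 3 or any wild-type capture ended the call, which held in 10 of 21 alternatives. Of 11 corepressors Ctbp2 fell, at 1689.8 ± 468 (SD, n = 5) in the null, against 4206 ± 832 (SD, n = 4) in the wild type (-1.32 ± 0.25 SE, limma adjusted p = 0.0298). Its other tested probe set was not called, and the call, held in 14 of 21 alternatives, was lost without null replicate 2 or any wild-type capture.

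In wild-type capture against hand-dissected MM, both of wild-type mesenchyme, Esrp1 and Esrp2 were higher in the captures and Zeb1 was lower. Of the 8 genes tested 2 were called higher and 1 lower. Over all 12172 genes, 13.6% were called higher and 9.88% lower. The hand-dissected arrays here are those that UB was set against, and the captured ones those that the null was set against, so the comparisons share arrays. The filter kept Esrp1 and Esrp2 through the captures alone.

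Esrp1, with the 3 hand-dissected values at or below 36.2, was at 1042 or more in every wild-type capture (log2 difference 5.34 ± 0.52 SE, limma adjusted p = 0.000225). Esrp2 was at 321 or more by its brightest probe set, against 187 or less (1.63 ± 0.35 SE, limma adjusted p = 0.00741). By 1433683_at it was too dim to be tested, at 44.3 to 219 in the captures and 33.9 to 108 in hand-dissected MM. Grhl2 read 192 to 977 in the captures and 143 to 185 in hand-dissected MM, and missed the threshold by the smallest margin (1.36 ± 0.46 SE, limma adjusted p = 0.050001). In 4 of 19 alternative analyses it was called.

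On the mesenchymal side Zeb1 was lower in the captures, at 14087 ± 2561 (SD, n = 4) against 21693 ± 3062 (SD, n = 3) in hand-dissected MM (log2 difference -0.63 ± 0.17 SE, limma adjusted p = 0.0183). It was called in 14 of 19 alternative analyses, and missed the threshold without hand-dissected replicate 5 or 7. By probe set 1443005_at Zeb1 was lower without a call (-0.65 ± 0.31 SE, limma adjusted p = 0.143). Probe set 1446127_at went the other way, at 95.5 to 427 in the captures and 8.7 to 71.3 in hand-dissected MM. That probe set was too dim to be tested. The difference of Snai2 was -0.02 ± 0.20 SE, that of Twist1 -0.02 ± 0.35 SE, that of Zeb2 -0.55 ± 0.48 SE and that of Vim 0.23 ± 0.17 SE, none of them called. By another probe set, 1434298_at, Zeb2 was called lower (-1.68 ± 0.43 SE, limma adjusted p = 0.0160), and by 1458941_at the difference was 0.74 ± 0.33 SE, not called (limma adjusted p = 0.122). The macrophage sums were 9263 to 19365 in the captures and 3572 to 10458 in hand-dissected MM, with 4 to 5 and 3 to 4 of the 6 markers above the median, and their part was not tested.

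Bud markers, like Esrp1, were higher in the wild-type captures than in hand-dissected MM. Of 9 tested bud markers 8 were called higher in wild-type capture than in hand-dissected MM, led by the calcium-binding protein gene Calb1 (log2 difference 5.83 ± 0.51 SE). The summed signal of all 10 was 134062 to 168030 in UB, 5081 to 21992 in the null captures, 7448 to 38423 in the wild-type captures and 1210.6 to 1764 in hand-dissected MM. Those above the array median numbered 9, 4 to 9, 9 and 4 to 5 in these groups. The 8 nephron progenitor markers summed to 1348.7 to 2031.4 in UB, 16016 to 83335 in the null captures, 34469 to 58953 in the wild-type captures and 65985 to 82584 in hand-dissected MM. Single progenitor markers differed from these sums. Cited1 was called higher in UB than in hand-dissected MM, at 256.1 ± 57.7 (SD, n = 4) and 61.8 ± 49.5 (SD, n = 3; log2 difference 1.70 ± 0.38 SE). It was dim in every hand-dissected MM array, so the filter kept it through UB alone. Six2 was called lower in wild-type capture than in hand-dissected MM, at 4711.5 ± 1543.5 (SD, n = 4) and 21975 ± 1549 (SD, n = 3; -2.28 ± 0.25 SE). Erythroid markers were also higher in the captures, with 4 of 6 called and sums of 98453 to 136921 in the null captures and 86661 to 167773 in the wild-type captures, against 64029 to 72899 in hand-dissected MM. Their part in the results was not tested.

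Esrp1 stood at 6.03%, 24.3%, 4.10% and 13% of its mean UB signal in wild-type captures 1 to 4. Grhl2 stood at 6.05%, 15.8%, 3.09% and 11.3%, and Ovol2 at 5.63%, 18.8%, 2.76% and 10.6%. Calb1 stood at 14.9%, 45.4%, 6.06% and 23.0%, and the median of the 10 markers at 4.88%, 12.6%, 4.78% and 17.4%. That median includes Hoxb7, which was dim in every UB array (mean 32.9), so its percentages rest on a dim signal. Esrp1, Grhl2, Ovol2 and Calb1 were highest in wild-type capture 2, next in capture 4 and lowest in capture 3. Of the other bud markers only Mal and Lhx1 had this order. Ret, Wnt9b, Gata3, Cdh16 and the marker median were highest in capture 4. Wnt11 and Hoxb7 were highest in capture 1, and Emx2 was lowest there. Esrp2 by its brightest probe set was not at a small share of UB, at 131%, 172%, 102% and 234% in the wild-type captures and 30.1% to 59.4% in hand-dissected MM. The hand-dissected arrays had Esrp1 at 0.0287% to 0.143% and Calb1 at 0.201% to 0.279%. The part of bud material in the captured values was not tested.

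Esrp1 stood at 12.5%, 1.77%, 3.81%, 5.09% and 6.43% of its mean UB signal in null replicates 1 to 5, and Grhl2 at 19.1%, 7.96%, 10.2%, 5.65% and 34.4%. Ovol2 stood at 7.00%, 3.67%, 0.807%, 2.09% and 4.74%, while Esrp2 by its brightest probe set stood at 127% to 187%. Calb1 stood at 0.129%, 8.20%, 8.86%, 6.57% and 11.2%, and the median of the 10 markers at 3.09%, 7.10%, 3.40%, 5.54% and 19.5%. The bud markers of null replicate 1, which had the highest Esrp1 of the null captures, differed among themselves. Ret, the bud's receptor for GDNF, was the highest of the null captures there at 10.1%, and Wnt9b was next to highest at 9.14%. Mal (2.62%) and Lhx1 (3.56%) also lay above the range of hand-dissected MM, and Gata3 (1.94%) lay just above it. Wnt11 (13.1%), Cdh16 (0.365%) and Emx2 (1.08%) lay within that range, and Calb1 and Hoxb7 lay below it. In that array 4 of the 10 bud markers were above the median. Replicate 5 had the highest Grhl2 and the highest marker median.

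**Figure D4:**
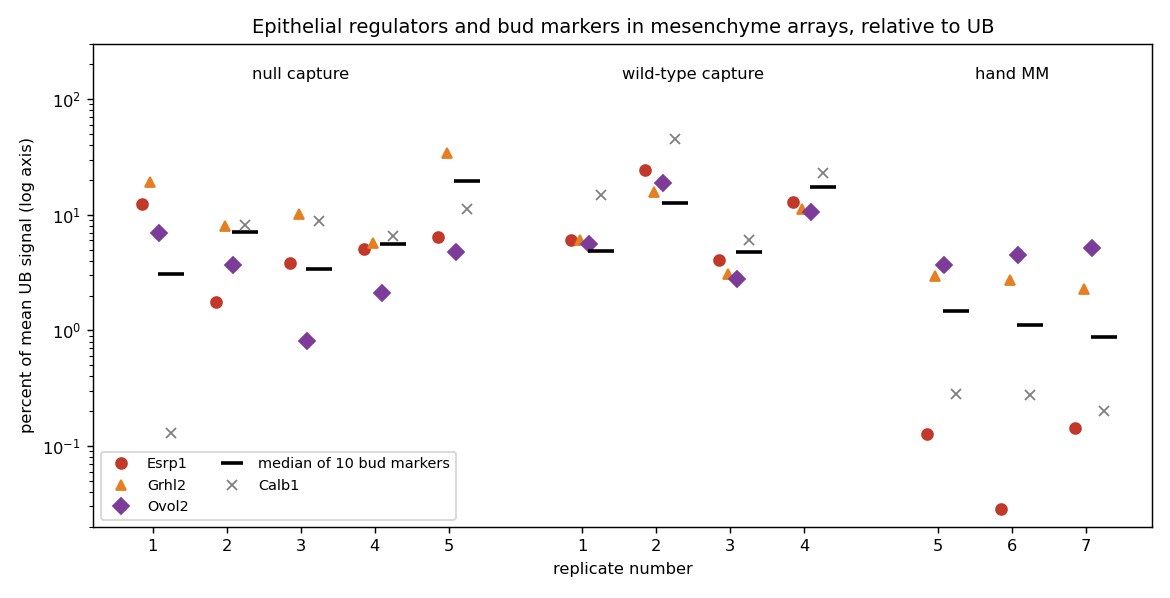
Signals of Esrp1, Grhl2, Ovol2 and Calb1 and the median of 10 bud markers in each mesenchyme array are plotted as a percentage of the mean UB signal (log axis). In the wild-type captures these values lie between 2.76% and 45.4%, and in the null captures Esrp1 lies between 1.77% and 12.5% and the marker median between 3.09% and 19.5%.

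Of 21 junction and polarity genes tested, 15 were higher in wild-type capture than in hand-dissected MM and 0 lower, with a median log2 difference of 1.96 where that of all genes was 0.08. Cldn3 (4.19 ± 0.60 SE), Cldn7 (4.10 ± 0.54 SE) and Cdh1 (3.50 ± 0.50 SE) led them. These were dim in every hand-dissected array, as were Ocln, Prss8 and St14, so the filter kept them through the captures alone. Of 6 tested epithelial transcription factors Tfap2a was higher (1.63 ± 0.48 SE, called in 9 of 18 alternatives) and Klf4 lower (-2.89 ± 0.32 SE).

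Of 16 tested mesenchymal transcription factors 3 were higher, Tcf3 (1.28 ± 0.21 SE), the bHLH factor Tcf21 (0.99 ± 0.24 SE) and Id3 (0.68 ± 0.20 SE), and Foxc2 was lower (-0.81 ± 0.19 SE). Of 22 matrix, adhesion and cytoskeleton genes 4 were higher. These were the muscle filament gene Des (1.61 ± 0.52 SE, called in 6 of 18 alternatives), the pericyte receptor gene Pdgfrb (1.46 ± 0.35 SE), Cdh11 (0.63 ± 0.17 SE) and the collagen Col3a1 (0.45 ± 0.13 SE), and 2 were lower, Col1a1 (-1.13 ± 0.26 SE) and Ncam1 (-0.70 ± 0.13 SE, with another probe set called higher).

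Rbfox2 (0.92 ± 0.26 SE) and Mbnl1 (0.86 ± 0.27 SE) were higher of 12 tested splicing factors, near the 13.6% of all genes that were. They were called in 13 and 9 of 18 alternatives. Of the 8 Esrp-spliced transcripts the total levels of Scrib (1.30 ± 0.25 SE) and Magi1 (0.93 ± 0.31 SE, called in 7 of 18 alternatives) were higher and those of Ctnnd1 (-1.14 ± 0.21 SE) and Fgfr2 (-0.54 ± 0.15 SE) lower. Of 11 TGF-beta genes Smad7 (-1.06 ± 0.23 SE) and Smad2 (-0.61 ± 0.17 SE) were lower. Of 11 corepressors Wtip was higher (0.75 ± 0.20 SE) and Kdm1a (-0.74 ± 0.11 SE) and Ajuba (-0.47 ± 0.15 SE, called in 9 of 18 alternatives) were lower.

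Both sides can be set against each other within each array. For this, the log2 level of each gene was centred on its mean over the 16 arrays, and the average of Zeb1, Zeb2, Snai1, Snai2 and Twist1 was taken from that of Esrp1, Esrp2, Grhl2 and Ovol2. The balance was 4.74, 5.22, 4.46 and 4.52 in the UB arrays. It was -0.01, -1.12, -1.11, -1.88 and -0.46 in the null captures, -1.05, 0.13, -2.35 and -0.69 in the wild-type captures, and -3.31, -3.40 and -3.69 in hand-dissected MM. Every capture thus lay between UB and hand-dissected MM, and the null and wild-type captures overlapped. The mesenchymal average was 0.27 to 1.07 in the null captures, 0.57 to 1.26 in the wild-type captures and 0.92 to 1.40 in hand-dissected MM, and the epithelial average was -0.84 to 0.26, -1.09 to 0.80 and -2.39 to -2.29 in these groups. The wider gap between captures and hand-dissected MM was thus on the epithelial side. These averages weight dim genes such as Snai1 as much as bright ones, and no test was made on them. Esrp2 enters by its brightest probe set, which was not called in UB against hand-dissected MM. That probe set stood at 102% to 234% of its mean UB signal in the wild-type captures and 127% to 187% in the null. By 1433683_at the wild-type captures read 44.3 to 219, against 33.9 to 108 in hand-dissected MM.

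**Figure D5:**
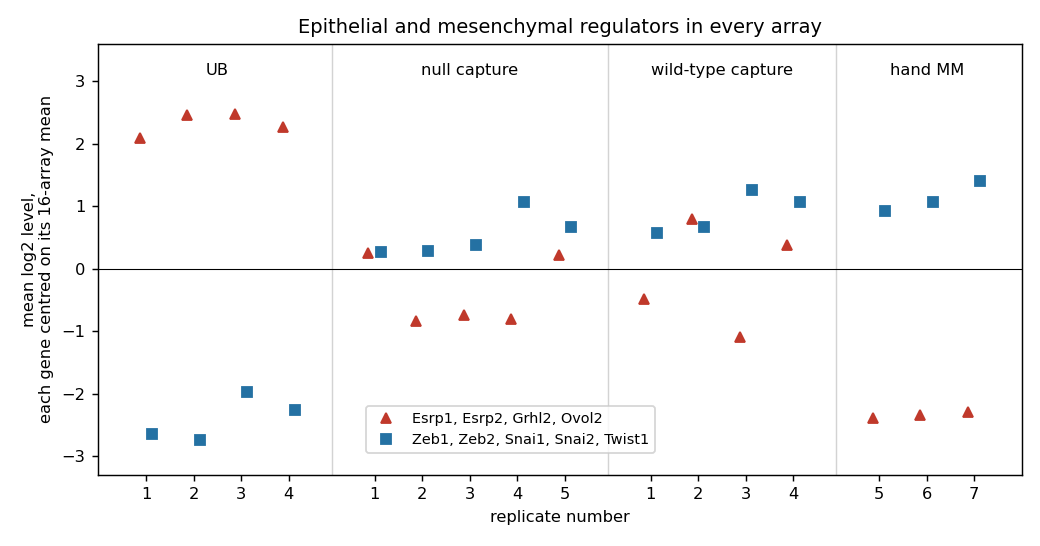
For each array the mean centred log2 level of Esrp1, Esrp2, Grhl2 and Ovol2 (triangles) and of Zeb1, Zeb2, Snai1, Snai2 and Twist1 (squares) is plotted by replicate number. Triangles lie above squares in all 4 UB arrays, below them in all 3 hand-dissected MM arrays, and close to them in null replicate 1 and wild-type capture 2.

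The genes most like each member were sought among 12977 other genes, by the mean absolute difference in centred log2 level over the 16 arrays. For Esrp1 these were Cdh1 (0.62), Cldn3 (0.68) and Cldn7 (0.77), where the median gene stood at 2.41. For Grhl2 they were Cdcp1 (0.40), Epcam (0.43) and Marveld2 (0.43), against a median of 1.64, and for Ovol2 Tmem54 (0.40), Ipcef1 (0.41) and L1td1 (0.42), against 1.59. For Snai2 they were the Hox cofactors Meis2 (0.51) and Meis1 (0.53) and the homeobox gene Hoxd10 (0.53), against 2.10. For Zeb1 they were Sncaip (0.43), Kif26b (0.44) and Syt7 (0.46), against 1.68.

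For Zeb2 the nearest were Plek (0.36), a protein of platelets and leukocytes, Klhl6 (0.52) and Gnb4 (0.54), against 1.52. For Twist1 they were Kcne1l (0.33), Slc1a3 (0.36) and Pcolce (0.37), against 1.26, and for Vim Anxa2 (0.21), Prrx2 (0.27) and Cacna1g (0.30), against 1.08. Esrp2 and Snai1 varied least. The nearest to Esrp2, by its brightest probe set, were Mrpl19 (0.22), Psmd3 (0.22) and Poll (0.24), against 0.76. Those of Snai1 were Hoxa4 (0.19), Shisa5 (0.28) and Zscan12 (0.28), against 0.62. The arrays of a group share their tissue and method, so these distances mostly describe differences between groups.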

How the data were processed

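Per the labels' protocols, each sample was amplified in 2 rounds and put on 1 Affymetrix MOE430_v2 array. The submitters' processing notes name MAS5, without a version, and the deposited intensity values are on a linear scale. Their mean, leaving out 2% at each end of an array, was 1500.01, so each array appears scaled to a common mean before deposit, as read from the values.

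Of 45101 probe sets, 64 controls were removed. Gene names came from the platform annotation: 34945 probe sets had 1 symbol, 932 several and 9160 none. Each gene counts through its probe set with the highest mean log2(signal + 36.3). A probe set was tested where the arrays in which it exceeded the array's median numbered no fewer than those of the smaller group. A list or marker gene could thus be kept through 1 group alone, which is stated here only for some. Each of 3 comparisons was fitted on its own arrays with limma 3.58.1 (lmFit, eBayes with intensity trend) in R 4.3.3, two-sided, with Benjamini-Hochberg adjustment over the tested probe sets, and the fit was tested on simulated data. All adjusted p values come from limma. Tables and figures used Python 3.11.15, pandas 2.3.3, numpy 2.4.6 and matplotlib 3.10.9.

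The members, lists and markers were chosen with earlier results of these data known. Named by rule from each list were up to 3 called genes with the largest difference per comparison (per direction in UB against hand-dissected MM). Others, such as relatives of members, genes of short counts, Cdh2, Patj, Fgfr2 and the Hox genes, were chosen after their values were seen, as were the alternatives for list genes and for the second probe sets of Snai2 and Esrp2. Some list genes are not reported here. The number of arrays limits the precision, and p values measure the spread between samples. The series text calls the replicates separate embryos, while per the labels the UB and wild-type capture samples are pools. Alternatives varied the offset, filter, normalization, arrays, variance model and probe set.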

Additional observations from a re-analysis of the deposited data

Results flagged for a closer look

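Among the 30 sets of 4 or 5 arrays examined (10 genes in UB and in both captures), 1 held an array far from the others, where chance alone gives about 1 in 20. It was Snai2 in UB replicate 3, at 683.7 against a next highest UB value of 202.0. The gap was 0.858 of the range of the 4 UB arrays. Without that array the log2 difference of Snai2 in UB against hand-dissected MM was -6.22, and it was called either way. The second Snai2 probe set was dim in all 4 UB arrays and gives no check of that value.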

How the results depend on the processing

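Of 506 alternative values for 26 results, 463 kept both their direction and their side of the threshold, 5 lost a call, 13 gained one and 25 changed sign, of which 1 was a called value. That one was Grhl2 in UB against hand-dissected MM, -0.428 by its second brightest probe set. In that comparison 5701 probe sets were called, 3580 with all 16 arrays in the fit and 10132 with array quality weights. In null against wild-type capture 411 were called, 256 without a filter, 207 with arrays centred on their median, 1793 with all 16 arrays, 215 without the intensity trend, 1654 with weights, and 60 to 1809 with 1 array left out (78, 62, 60 and 66 without wild-type replicates 1 to 4, and 1809, 176, 175 and 263 without null replicates 1, 2, 3 and 5). In wild-type capture against hand-dissected MM 5866 were called, 2811 with all 16 arrays and 3384 to 5994 with 1 left out, the lowest without hand-dissected replicate 7. Median centring moved the median difference of all probe sets to 0.16, 0.15 and -0.08 in the 3 comparisons, against 0.02, -0.15 and 0.11, and the share of calls that were higher to 64.6%, 65.7% and 43.2%, against 51.8%, 33.6% and 65.8%. Cyclic loess gave 45.6% in the null comparison, and quantile normalization 53.3% in the last.

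Same-numbered null and wild-type captures did not deviate together (correlations of -0.0052, 0.0339, -0.0467 and 0.0743), and no label pairs embryos. A fit with the replicate number as a block called 53 probe sets and gave Zeb1 as 0.042.

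In null against wild-type capture 1 member, Zeb2, was called with all 16 arrays (adjusted p = 0.0390), with weights (-2.24, adjusted p = 0.0440) and without null replicate 1 (-2.29, adjusted p = 0.0436), and 0 to 1 with 1 array left out. Uncalled differences near 0 changed sign. Zeb1 was 0.224 with median centring, 0.041 with weights, 0.048 by its second probe set and -0.265 to 0.087 with 1 array left out. Snai1 was 0.014 with an offset of 100, 0.301 with quantile normalization, 0.257 with median centring, 0.234 with loess, 0.128 with weights and -0.139 to 0.32 with 1 left out, and Esrp2 -0.121 to 0.25. In wild-type capture against hand-dissected MM 1 member was called by second brightest probe sets, against 3. These gave Grhl2 as -0.493 and Zeb2 as 0.744. Snai2 was 0.064 with quantile normalization and -0.119 to 0.163 with 1 left out, and Twist1 -0.253 to 0.232. The cause was not tested. Among further list and marker genes, chosen for this after their values were seen, 92 of 110 calls in UB against hand-dissected MM held in every alternative, as did 0 of 4 in null against wild-type capture and 25 of 56 in wild-type capture against hand-dissected MM, and 0 changed direction. Dim signals limit Snai1 outside the null captures and Ovol2 outside UB. In the null captures Snai1 was low as well, at 16.1 to 233.7 where the array medians were 112.7 to 209.2.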
